A study of Homo sapiens with 7 samples.

Results

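The HIF pathway and glycolysis were examined in ACHN cells, a human renal cell carcinoma line, as a set of 46 genes chosen by name. The set held 7 genes of the HIF subunits and oxygen sensing, 15 HIF target genes outside glycolysis, 6 genes of glucose uptake and glycolysis control, 13 glycolytic enzymes and 5 genes of pyruvate and lactate handling, out of 34809 gene names on the array. They were read by 57 probes. Control cells had been infected with the pBabe-hygro empty retroviral vector (EV, 4 samples) and HOTAIR cells with the same vector carrying human HOTAIR cDNA (3 samples). HOTAIR is a long non-coding RNA of the HOXC cluster. Both groups were stably infected ACHN populations selected with hygromycin, and the labels name no further treatment in either. Total RNA of each sample was labelled with Cy3 and hybridised to a 1-colour Agilent SurePrint G3 Human GE 8 x 60K array, and the comparison asked which genes change when HOTAIR is overexpressed. Neither the labels nor the methods state separate infections or cultures for the samples of a group, so the p-values measure the spread between these samples, which may be technical.

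HIF is a heterodimer of an oxygen-labile alpha subunit, HIF-1 alpha or HIF-2 alpha, and the stable partner ARNT. In oxygen the alpha subunits are hydroxylated by prolyl hydroxylases of the EGLN family, bound by the VHL protein and degraded, so that the pathway is controlled largely at the protein level. Stabilised HIF binds short hypoxia response elements and induces glucose transporters, most glycolytic enzymes, lactate export and angiogenic factors, and loss of VHL makes this programme a hallmark of clear cell renal carcinoma. An mRNA array measures the transcripts of the HIF genes and of their targets, not HIF protein, enzyme activity or glycolytic flux.

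Levels are given as the log2 processed signal of a probe minus the 75th percentile of all non-control spots on the same array, so that a level is read against its own array and not against another probe. The 75th percentile was an intensity of 523 to 649, between 48.7% and 52.1% of probes were well above background, and no spot was saturated. The HOTAIR probe failed the well-above-background call on all EV arrays (mean -6.69 ± 0.39, SD, n = 4) and met it on every HOTAIR array (-2.98 ± 0.35, SD, n = 3), at least 9.32-fold higher in HOTAIR cells. The limma adjusted p of 0.00162 is that of the measured log2 difference of 3.71, which uses the EV readings below the call. The probe entered the test through its call in HOTAIR cells alone. For 32 of the 52 tested member probes EV 2 was the EV array farthest from the median of its group, and for 32 of 52 HOTAIR 3 was the farthest HOTAIR array, against 50.9% and 53.0% of all tested probes. Differences are therefore also given without both for many of the members. A member given without that value need not have stayed the same. Of 11 renal epithelial marker genes on the array, 10 were well above background on every array (all but CUBN), and of 8 markers of other cell types the 2 macrophage-associated genes CD14 and CD68 were. All 7 arrays lay on 1 slide, with EV in one row and HOTAIR in the other, so that the slide row and the group cannot be told apart.

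None of the 52 tested member probes, which stand for 43 of the 46 genes, differed between HOTAIR and EV cells at an adjusted p of 0.05 by limma with Benjamini-Hochberg adjustment, against 0.167% of the 20419 probes tested (0.132% higher and 0.0343% lower in HOTAIR cells). The lowest adjusted p of a member was 0.532. At an unadjusted p under 0.05 there were 2 member probes, those of the carbonic anhydrase gene CA12 and of the stress-response gene NDRG1, against 5.85% of all tested probes. Of the 52 probes, 2 were higher on every HOTAIR array than on any EV array (CA12 and NDRG1, background 4.20%) and 1 was lower (P4HA2, background 3.5%), 3 in all against 7.70% of all tested probes. With the brightest tested probe standing for each gene, 26 genes were nominally higher and 17 lower in HOTAIR cells, with a median log2 difference of 0.02 beside 0.01 over all tested probes, of which 52.8% were nominally higher. The difference of 41 genes was 0.2 or less in size on the log2 scale, and that of 25 was 0.1 or less. A p above the threshold does not show that levels were equal, so the intervals are given too. The 95% interval of the difference lay within 1 log2 unit of 0 for 49 of 52 member probes (94.2%, against 87.0% of all tested probes), and within 0.5 for 36 (69.2%, against 44.5%). The median within-group SD of the brightest member probes was 0.16, and that over all tested probes was 0.22. The former takes 1 probe per gene and the latter every tested probe. Neither these SDs nor the interval shares were matched for signal level.

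**Figure D1:**
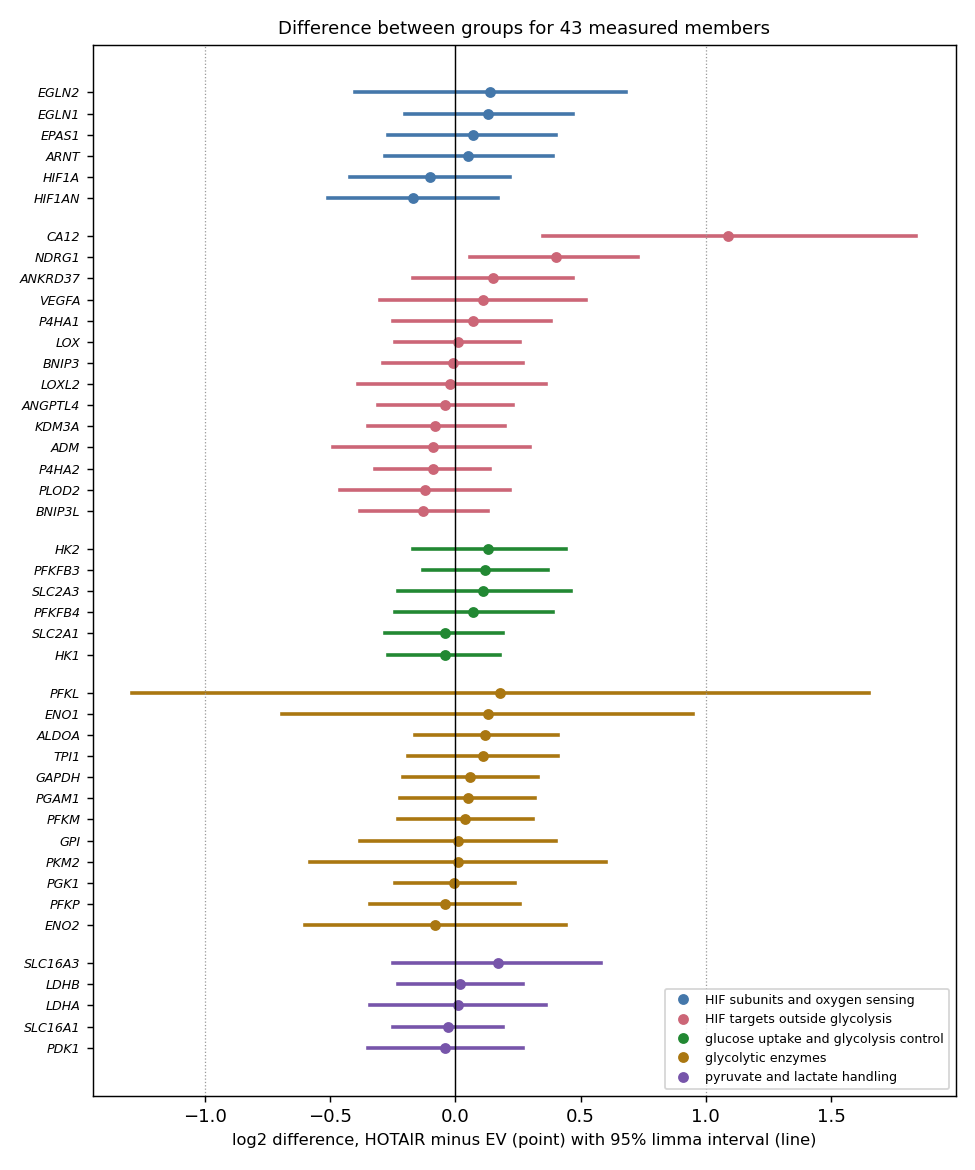
Log2 difference of HOTAIR minus EV for the 43 measured genes, coloured by role and ordered by size within each role (point, brightest tested probe; line, 95% limma interval; dotted lines at 1 log2 unit). The intervals of CA12 and NDRG1 lie above 0, those of the other 41 genes cross 0, and CA12 and PFKL reach beyond 1.

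Among the HIF subunits, HIF1A encodes HIF-1 alpha, and its brighter probe (hg19 chr14:62214845-62214904, plus strand, 10 spots per array) read 3.07, 3.29, 2.89 and 2.92 on EV 1 to 4 and 2.79, 2.99 and 3.04 on HOTAIR 1 to 3. The groups overlapped, with a log2 difference of -0.10 (95% interval -0.42 to 0.22, limma adjusted p = 0.993). The other HIF1A probe (hg19 chr14:62211472-62211531) read 0.63, 1.66, 0.82 and 0.43 in EV and 0.56, 0.37 and 0.78 in HOTAIR cells, a difference of -0.31 (-0.98 to 0.35) in which EV 2 alone exceeded 1. Without EV 2 and HOTAIR 3 that difference was -0.16. EPAS1, which encodes HIF-2 alpha (hg19 chr2:46613666-46613725), read 4.22, 3.91, 4.39 and 4.18 in EV and 4.09, 4.37 and 4.27 in HOTAIR cells. Its values interleaved, and the difference of 0.07 (-0.27 to 0.40) became -0.04 without those 2 arrays. ARNT, the shared partner of both alpha subunits, read -3.30, -2.86, -2.90 and -2.94 against -3.01, -3.05 and -2.79, a difference of 0.05 (-0.28 to 0.39) with EV 1 the lowest of all arrays.

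The oxygen sensors showed the same overlap. HIF1AN encodes the asparaginyl hydroxylase that blocks HIF from its coactivators, and it read -2.53, -2.36, -2.77 and -2.86 in EV and -2.71, -2.89 and -2.82 in HOTAIR cells. Its difference of -0.17 (-0.51 to 0.17) was the lowest among the 43 genes, and it was -0.08 without EV 2 and HOTAIR 3. EGLN1 encodes PHD2, the main HIF prolyl hydroxylase in most cells, and read 1.85, 1.79, 2.09 and 1.87 in EV and 2.13, 2.20 and 1.77 in HOTAIR cells. HOTAIR 1 and 2 were above every EV array and HOTAIR 3 below them all, with a difference of 0.13 (-0.20 to 0.47), or 0.23 without EV 2 and HOTAIR 3. EGLN2, which encodes PHD1, read 0.39, -0.36, 0.37 and 0.47 against 0.58, 0.43 and 0.06. EV 2 and HOTAIR 3 were the low arrays of their groups, and the difference was 0.14 (-0.40 to 0.68), or 0.10 without them. EGLN3 encodes PHD3, whose gene is itself induced by HIF, and its probe did not reach the background call on any array. The readings were -7.09, -7.01, -6.82 and -6.58 in EV and -7.16, -6.55 and -7.23 in HOTAIR cells, overlapping, and no fold is given.

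**Figure D2:**
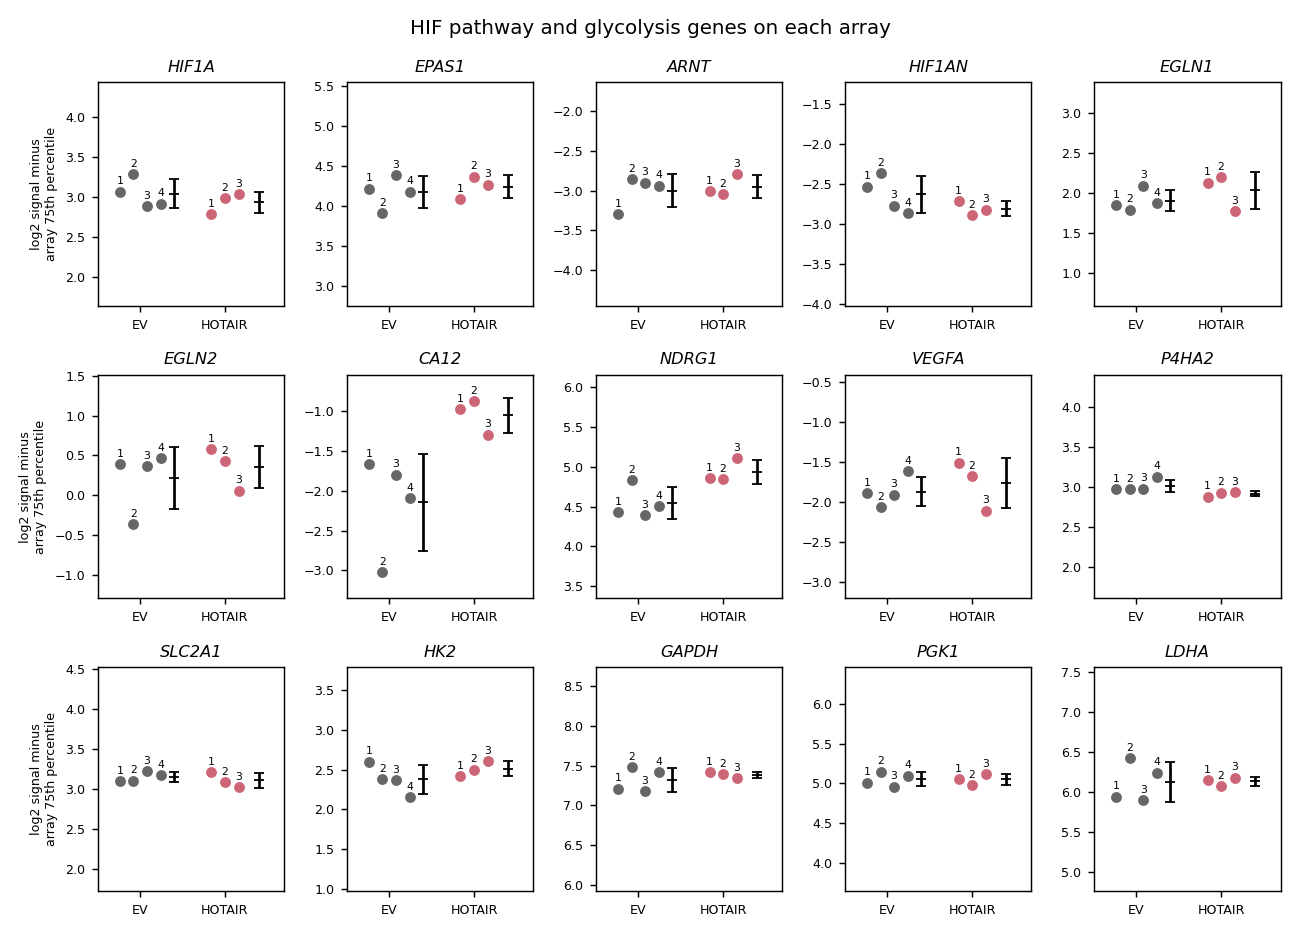
Level on each array (log2 signal minus the 75th percentile of that array) of 15 named genes, with EV in grey, HOTAIR in red, the replicate number above each point and the mean with SD as a bar to the right; each panel spans 2.8 log2 units around its own midpoint. HOTAIR arrays lie above every EV array for CA12 and NDRG1 and below them for P4HA2, and the groups overlap in the other 12 panels.

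The 15 targets outside glycolysis code for pH control, angiogenic factors, mitophagy receptors and collagen modifiers. CA12, a membrane-bound carbonic anhydrase (hg19 chr15:63616499-63616558, minus strand), read -1.67, -3.02, -1.80 and -2.09 on the EV arrays and -0.98, -0.88 and -1.30 on the HOTAIR arrays. Every HOTAIR array was above every EV array, and EV 2 lay 1.23 below the median of the other EV arrays. The EV mean was -2.14 ± 0.61 (SD, n = 4) and the HOTAIR mean was -1.05 ± 0.22 (SD, n = 3). The difference was 1.09 ± 0.32 (SE) on the log2 scale, or 2.13-fold. The unadjusted limma p was 0.010 and the adjusted p was 0.532. The exact permutation test over the 35 splits of the arrays gave a two-sided p of 0.0571, the smallest possible being 0.0286. Without EV 2 and HOTAIR 3 the difference was 0.92, with a limma adjusted p of 0.211, and without EV 2 alone it was 0.80 (adjusted p = 0.212). With normexp background correction of all arrays it was 0.68 (adjusted p = 0.614). With limma array weights, which give the arrays that stand apart less weight, it was 0.90 with an adjusted p of 0.0345, the only setting of those tried in which a member passed the threshold. In that setting 324 of the 20419 probes passed it.

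NDRG1 was the other gene whose groups did not overlap upwards. It read 4.43, 4.83, 4.39 and 4.51 in EV and 4.86, 4.84 and 5.11 in HOTAIR cells, with EV 2 only just under HOTAIR 2. The difference was 0.40 ± 0.14 (SE), or 1.32-fold, with a limma adjusted p of 0.750 and an exact permutation p of 0.0571, and it was 0.41 without EV 2 and HOTAIR 3. P4HA2 encodes a subunit of collagen prolyl 4-hydroxylase, and its brighter probe (hg19 chr5:131528308-131528367) read 2.97, 2.97, 2.98 and 3.13 against 2.88, 2.93 and 2.94. All HOTAIR arrays were lower, by a difference of -0.09 (-0.32 to 0.14) whose exact permutation p was 0.0857. The other P4HA2 probe, 1 spot at hg19 chr5:131549610-131549669, read -1.33, -2.23, -1.12 and -1.21 against -1.14, -1.47 and -1.27. It differed by 0.18 in the opposite direction with EV 2 the lowest array, and by -0.09 without EV 2 and HOTAIR 3.

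CA9, a carbonic anhydrase widely used as a marker of HIF activity in renal carcinoma, did not reach the background call on any of the 7 arrays. The readings below that call were -7.48, -7.27, -7.44 and -7.28 in EV and -7.20, -6.51 and -7.51 in HOTAIR cells, and no fold is given. VEGFA, the main angiogenic growth factor among HIF targets, had 2 probes of opposite direction. The brighter read -1.89, -2.07, -1.91 and -1.62 in EV and -1.51, -1.68 and -2.11 in HOTAIR cells, a difference of 0.11 (-0.30 to 0.52). The dimmer (hg19 chr6:43753511-43753570) read -2.48, -1.54, -2.46 and -2.39 against -2.63, -2.60 and -2.08, a difference of -0.22 (-0.84 to 0.40). In both, HOTAIR 3 was the array apart from its group, and without EV 2 and HOTAIR 3 the differences were 0.21 and -0.17. ANKRD37, a HIF-induced ankyrin repeat gene, read -1.55, -1.54, -1.25 and -1.5 against -1.25, -1.14 and -1.53, a difference of 0.15 (-0.17 to 0.47), or 0.23 without those arrays.

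The remaining targets outside glycolysis overlapped between the groups. The vasodilator peptide gene ADM differed by -0.09 (-0.49 to 0.30), and by -0.29 without EV 2 and HOTAIR 3, the lowest value of any member there. ANGPTL4, a secreted inhibitor of lipoprotein lipase, differed by -0.04. BNIP3 differed by -0.01 and the related mitophagy receptor gene BNIP3L by -0.13 and 0.04 at its 2 probes. Among the collagen modifiers, P4HA1 differed by 0.07, the lysyl hydroxylase gene PLOD2 by -0.12, and the lysyl oxidase genes LOX and LOXL2 by 0.01 and -0.02. The histone demethylase gene KDM3A differed by -0.08. Without EV 2 and HOTAIR 3 the differences were 0.16 for P4HA1, 0.07 for LOXL2, 0.04 for ANGPTL4, 0.01 for BNIP3 and -0.16 for KDM3A. Over the 14 tested genes of this role 6 were nominally higher and 8 lower, with a median difference of -0.01.

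Binding of HIF is known to need a short core, ACGTG or GCGTG, and the promoters of the members are shown for where it lies. RefSeq promoters (GRCh38.p14, 250 bases before to 50 after a start) were found for 40 of the 46 genes, 71 promoters in all. LOXL2, BNIP3L, SLC2A3, VEGFA, NDRG1 and SLC16A1 had none in the table. On either strand, and with the palindrome CACGTG counted on both, at least 1 core lay in 48 of the 71 (67.6%), against 48.4% of all 35116 promoters of the same length. The share was 13 of 14 for the targets outside glycolysis, 16 of 25 for the glycolytic enzymes and 4 of 9 for the HIF subunits and oxygen sensors. The stretches below are from before the start, 5′ to 3′ on the strand of the gene, with the cores of either strand in capitals; they show CA12, the largest difference, CA9 and EGLN1, and 4 genes of the targets and enzymes.
CA12 (chr15:63382051-63382096, minus): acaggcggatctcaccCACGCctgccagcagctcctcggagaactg
CA9 (chr9:35673885-35673927, plus): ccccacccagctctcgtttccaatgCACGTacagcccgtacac
EGLN1 (chr1:231422288-231422325, minus): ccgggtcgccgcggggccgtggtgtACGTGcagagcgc
ANKRD37 (chr4:185396673-185396727, plus): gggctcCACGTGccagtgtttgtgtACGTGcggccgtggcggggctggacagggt
LDHA (chr11:18394465-18394519, plus): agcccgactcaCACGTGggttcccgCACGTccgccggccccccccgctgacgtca
PGK1 (chrX:78104040-78104094, plus): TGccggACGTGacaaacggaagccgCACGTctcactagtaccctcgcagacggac
ENO1 (chr1:8878729-8878783, minus): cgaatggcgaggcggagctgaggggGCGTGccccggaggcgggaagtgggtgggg
Of the cores before the start, the nearest lay 18 bases before it in CA9, 13 in EGLN1, 73 in LDHA, 183 in PGK1 and 234 in CA12, counted to its first base in the strand shown. In ANKRD37 and LDHA, CACGTG stood next to a further core. The opening TG in PGK1 is the end of another core that begins outside the stretch. The 33 tested genes with a core in any of their promoters had a median log2 difference of 0.02, and the 4 without one, HIF1AN, ARNT, P4HA2 and PGAM1, a median of -0.02. A core in this window is a match of letters and not a measured binding site.

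In glucose uptake and glycolysis control, no probe separated the groups. SLC2A1 encodes GLUT1, the basal glucose transporter, and its probe (hg19 chr1:43391874-43391933, minus strand) read 3.09, 3.1, 3.22 and 3.17 in EV and 3.21, 3.08 and 3.02 in HOTAIR cells. All 7 values lay close together, and the difference of -0.04 had a 95% interval of -0.28 to 0.19. HK2, the inducible hexokinase, read 2.60, 2.38, 2.37 and 2.15 against 2.42, 2.50 and 2.61, a difference of 0.13 (-0.17 to 0.44). The HK2 probe is placed by the array annotation at hg19 chrX:79825025-79825084, whereas RefSeq has HK2 on chromosome 2 and its pseudogene HK2P1 on X, so that the signal is uncertain between near-identical copies. A further HK2 probe and a further probe of the glucose transporter gene SLC2A3 did not reach the background call on any array. The tested SLC2A3 probe differed by 0.11 (-0.23 to 0.46), and HK1, the constitutive hexokinase, by -0.04 (-0.27 to 0.18). PFKFB3 and PFKFB4 encode enzymes that make and degrade fructose 2,6-bisphosphate, the activator of phosphofructokinase. PFKFB3 differed by 0.12 at its brighter and -0.06 at its dimmer probe, and PFKFB4 by 0.07. The median of the 6 genes was 0.09.

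Among the glycolytic enzymes, 12 of 13 were tested, with a median difference of 0.05. ALDOC, the brain-type aldolase, did not reach the background call on any array. GAPDH, the PCR reference gene of the study, read 7.21, 7.48, 7.18 and 7.42 in EV and 7.42, 7.39 and 7.34 in HOTAIR cells at 10 spots per array (hg19 chr12:6646918-6646977). The HOTAIR values lay within the range of EV, with a difference of 0.06 (-0.21 to 0.33). PGK1, which makes the first ATP of glycolysis, read 5.01, 5.15, 4.96 and 5.10 against 5.05, 4.98 and 5.12, also at 10 spots (hg19 chrX:77381462-77381521). The group means were 5.05 in both, and the difference was -0.0038 (-0.24 to 0.24). The aldolase gene ALDOA differed by 0.12, the triosephosphate isomerase gene TPI1 by 0.11, the phosphoglucose isomerase gene GPI by 0.01 and the pyruvate kinase gene PKM2 (current symbol PKM) by 0.01. The phosphofructokinase genes PFKM and PFKP differed by 0.04 and -0.04, the other PFKP probe by 0.04, and the neuronal enolase gene ENO2 by -0.08. Without EV 2 and HOTAIR 3 the differences were 0.23 for ALDOA and PKM2, 0.20 for TPI1 and -0.12 for GPI. They were 0.13 for GAPDH, -0.03 for PFKM and -0.05 for ENO2.

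For 3 probes of this role, EV 2 and HOTAIR 3 both lay over 1 log2 unit below the median of their group's other arrays. PFKL, the liver-type phosphofructokinase, read -0.27, -2.83, -0.61 and -0.64 in EV and -0.39, -0.65 and -1.68 in HOTAIR cells. EV 2 was 2.22 below the median of the other EV arrays and HOTAIR 3 was 1.16 below that of the other HOTAIR arrays, which left the difference of 0.18 with an interval of -1.29 to 1.65. ENO1, the ubiquitous enolase, read 5.95, 4.82, 5.35 and 5.85 against 6.05, 5.87 and 4.95, a difference of 0.13 (-0.69 to 0.95). Its low arrays were again EV 2 and HOTAIR 3. PGAM1, phosphoglycerate mutase, had a probe that read 3.02, -0.06, 2.87 and 2.76 against 2.99, 2.78 and 1.59. That difference of 0.30 (-1.5 to 2.11) became -0.0019 without EV 2 and HOTAIR 3. The brighter PGAM1 probe read 5.50, 5.44, 5.32 and 5.67 against 5.57, 5.51 and 5.53, with no array apart and a difference of 0.05 (-0.22 to 0.32). Without both arrays the difference of PFKL was -0.02 and that of ENO1 was 0.24.

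The sequences of these 3 probes are shown with that of GAPDH, because all 4 hold 55% G and C, while the first 3 were more than 1 log2 unit low on both EV 2 and HOTAIR 3 and GAPDH was not.
PGAM1 (dimmer probe): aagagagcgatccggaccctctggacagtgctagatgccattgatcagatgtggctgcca
PFKL: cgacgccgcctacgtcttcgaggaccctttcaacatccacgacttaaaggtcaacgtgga
ENO1: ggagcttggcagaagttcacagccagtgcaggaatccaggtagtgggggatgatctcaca
GAPDH: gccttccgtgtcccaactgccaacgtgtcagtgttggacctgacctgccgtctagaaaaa
Each 60-base probe has at least 1 reading frame with no stop codon. The ENO1 probe is placed at hg19 chr1:8924054-8924113 on the minus strand, PFKL has no position in the array annotation, and the PGAM1 probe is placed at hg19 chr12:94035123-94035182, whereas RefSeq has PGAM1 on chromosome 10 and a pseudogene, PGAM1P5, on chromosome 12. On EV 2 GAPDH was 0.27 above the median of the other EV arrays. The other tested member probes with 55% G and C deviated there by 0.41 (HIF1AN), 0.29 (ALDOA) and -0.44 (SLC16A3). Over the 52 member probes, the deviation of EV 2 had a correlation of -0.45 with the G and C content, and of -0.23 over all tested probes. The part of base composition in these readings was not tested.

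**Figure D3:**
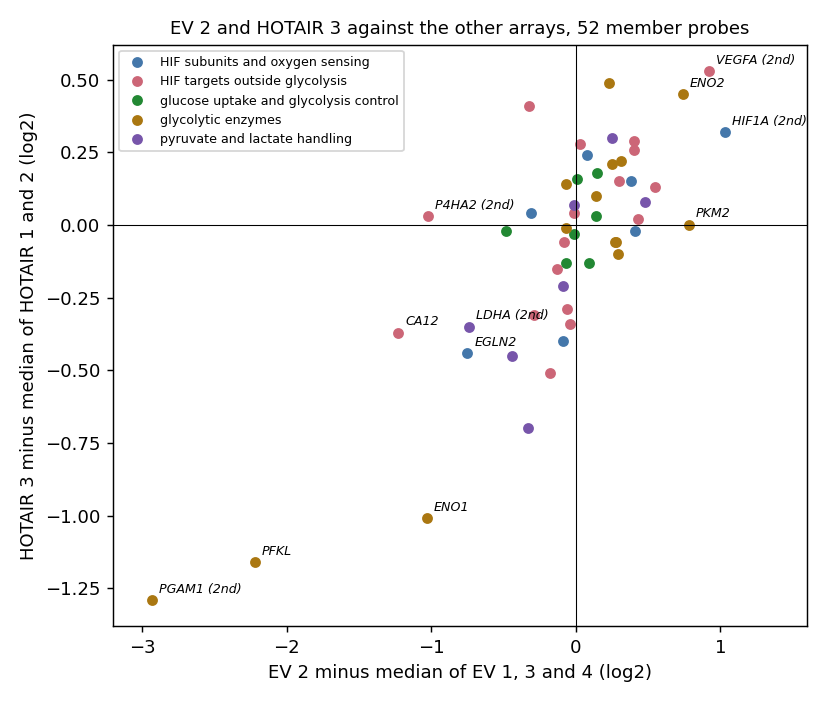
For each of the 52 member probes, the log2 deviation of EV 2 from the median of EV 1, 3 and 4 (horizontal) against that of HOTAIR 3 from the median of HOTAIR 1 and 2 (vertical), coloured by role; probes more than 0.7 away on EV 2 are named, and (2nd) marks a probe that is not the brightest of its gene. The dimmer PGAM1 probe, PFKL and ENO1 are the only probes more than 1 log2 unit low on both arrays.

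EV 2 and HOTAIR 3 departed from their groups in a like manner across the members. The sign of both deviations was the same for 41 of 52 probes, with a Pearson correlation of 0.80 and a Spearman correlation of 0.67 over the probes, and 0.65 (Pearson) without the 2 probes farthest on EV 2. Over all 20419 probes the Pearson correlation was 0.63. The points are probes of the same 7 arrays and are not independent. On EV 2, 5 member probes were more than 1 log2 unit below the median of the other EV arrays (PGAM1, PFKL, CA12, ENO1 and the dimmer P4HA2 probe). The dimmer HIF1A probe was more than 1 above it. These 6 of 52 probes stand beside 9.85% of all 20419 tested probes that far away on EV 2 in either direction. Without EV 2 and HOTAIR 3, 25 of the 43 genes were nominally higher in HOTAIR cells, 7 genes changed sign, the differences ran from -0.29 to 0.92, and no member passed the adjusted threshold.

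**Figure D4:**
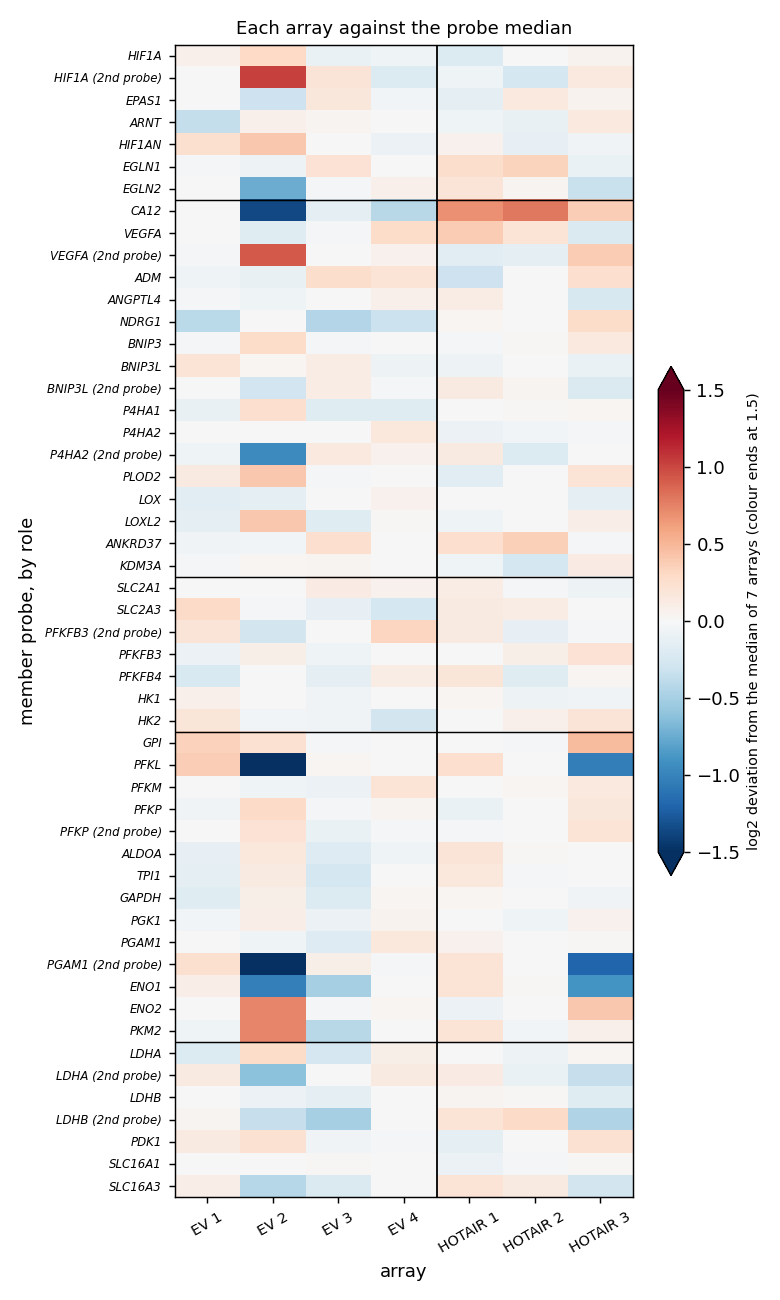
Deviation of each array from the median of the 7 arrays for the 52 tested member probes, in log2 units, grouped by role (horizontal lines) with EV left and HOTAIR right of the vertical line; red is higher and blue lower, and colours end at 1.5. The strongest colours fall on EV 2, on HOTAIR 3 and in the CA12 line.

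In pyruvate and lactate handling, LDHA, the lactate dehydrogenase subunit that favours lactate formation, read 5.94, 6.42, 5.90 and 6.24 in EV and 6.15, 6.07 and 6.18 in HOTAIR cells at its brighter probe (hg19 chr11:18428789-18428848). The HOTAIR values fell within the range of EV, with a difference of 0.01 (-0.34 to 0.36). The other LDHA probe read 3.90, 3.16, 3.77 and 3.91 against 3.89, 3.67 and 3.43, a difference of -0.02 (-0.52 to 0.48). EV 2 was the highest EV array at the former and the lowest at the latter, and without EV 2 and HOTAIR 3 the differences were 0.08 and -0.08. The sequences are shown because the array annotation places the latter on another chromosome, at hg19 chr9:14921817-14921876. RefSeq has a pseudogene, LDHAP4, on that chromosome.
LDHA (brighter probe): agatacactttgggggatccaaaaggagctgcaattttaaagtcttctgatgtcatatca
LDHA (dimmer probe): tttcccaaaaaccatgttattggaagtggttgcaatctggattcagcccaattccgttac
LDHB, the heart-type subunit, differed by 0.02 (-0.23 to 0.27) at its brighter and 0.21 (-0.31 to 0.73) at its dimmer probe, or 0.08 and 0.40 without EV 2 and HOTAIR 3. SLC16A3 encodes MCT4, the HIF-induced lactate exporter, and read 0.61, 0.08, 0.29 and 0.51 against 0.72, 0.65 and 0.23. HOTAIR 1 and 2 were above all EV arrays and HOTAIR 3 was not, and the difference was 0.17 (-0.25 to 0.58), or 0.22 without EV 2 and HOTAIR 3. SLC16A1, which encodes the transporter MCT1, differed by -0.03 (-0.25 to 0.19). PDK1, a pyruvate dehydrogenase kinase, differed by -0.04 (-0.35 to 0.27). The median of the 5 genes was 0.01.

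Of the 9 genes with 2 tested probes, both had the same sign for HIF1A, LDHB and PGAM1 and opposite signs for BNIP3L, LDHA, P4HA2, PFKFB3, PFKP and VEGFA. In all, the array annotation put 5 probes of 4 genes (HK2, TPI1, PGAM1 and LDHA) on a chromosome other than that of the gene in RefSeq, and gave 8 probes of 8 genes no position. The only TPI1 probe is placed at hg19 chr1:77166422-77166481, whereas RefSeq has TPI1 on chromosome 12 and a pseudogene, TPI1P1, on chromosome 1. Pseudogenes were matched by name and chromosome, and their positions were not compared with those of the probes. For these genes the share of signal from near-identical copies is uncertain.

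Further genes of the same pathways were read from lists outside the 46. Of 10 other HIF pathway components on the array all were tested and none passed the adjusted threshold in either direction. VHL, the substrate receptor for hydroxylated HIF, differed by -0.16 (-0.45 to 0.13), and the extremes were ARNT2, a paralogue of ARNT, at 0.33 and the elongin B gene TCEB2 at -0.19. Of 25 other HIF targets 22 were tested and none passed. HMOX1, which encodes heme oxygenase 1 and is also induced by oxidative stress, read 3.45, 3.57, 3.61 and 3.91 in EV and 4.54, 4.50 and 4.34 in HOTAIR cells. Its groups did not overlap, and the difference of 0.82 ± 0.14 (SE) had a limma adjusted p of 0.113 and an exact permutation p of 0.0286, the smallest possible. The lowest was MXI1, a MYC antagonist, at -0.23. Of 36 other glucose metabolism genes 23 were tested and none passed. PDK3, another pyruvate dehydrogenase kinase, read -4.19, -4.58, -4.76 and -4.52 against -3.65, -3.85 and -3.95, with no overlap, a difference of 0.70 ± 0.16 (SE), a limma adjusted p of 0.271 and an exact permutation p of 0.0571. The lowest was PFKFB2, a further fructose 2,6-bisphosphate enzyme, at -0.31. Its groups did not overlap at that probe either (limma adjusted p = 0.736, exact permutation p = 0.0571). PYGL was also lower without overlap, at -0.19 (limma adjusted p = 0.932, exact permutation p = 0.0286). Probes without overlap were 0 of 11, 1 of 25 and 3 of 27 in the 3 lists, against 7.70% of all tested probes. The median differences of the 3 lists were -0.07, -0.04 and -0.04. Among the renal epithelial markers the extremes were LRP2 at 0.53 and CDH16 at -0.62, and none of the tested markers passed the adjusted threshold. Of their 12 tested probes 3 did not overlap (CDH16, KRT19 and EPCAM), all lower in HOTAIR cells. Over all tested probes 7.70% did not overlap in either direction, and 3.50% were lower. The markers were not tested as a set.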

How the data were processed

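The authors hybridised Cy3-labelled RNA of 7 ACHN samples to 1-colour Agilent arrays (hg19 annotation), and per the file headers the deposited intensity values were background-subtracted and detrended by Agilent Feature Extraction 10.7.3.1, with no scaling between arrays. The deposited value table holds the same intensity values. Here the log2 processed signal was centred on the 75th percentile of each array, control and outlier spots (408 to 600 per array) were left out, and spots of a probe were averaged. Probes called well above background throughout EV, throughout HOTAIR, or both (20419) were compared by limma 3.58.1 in R 4.3.3 without covariates, with Benjamini-Hochberg adjustment over all of them. The brightest tested probe stood for a gene. Single values were also tested by exact permutation, two-sided. The test was tested on simulated data. Genes named with values on every array were the HIF subunits and sensors, CA9, VEGFA, SLC2A1, PGK1, LDHA, GAPDH, members that passed the threshold or separated the groups, and the 10 largest differences; further tested probes of these genes, and HMOX1 and PDK3, were given in the same way, and PGAM1 was added after its values were seen. Outside the 46, the largest positive and negative difference of each list were named. VHL, PYGL, KRT19 and EPCAM were added after their values were seen. Members and lists were chosen with earlier results of these data known. Background correction, scaling, filter, moderation, test and left-out arrays were varied. The number of arrays limits the precision, and all 46 names were matched to RefSeq, PKM2 as PKM.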

Additional observations from a re-analysis of the deposited data

Results flagged for a closer look

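For 9 of the 52 tested member probes, the highest or the lowest of the 4 EV arrays stood apart. Its gap to its neighbour, as a share of the range of the group, exceeded the 95% limit of Dixon's test. Chance gives about 1 in 20 groups. The share over all tested probes was not computed, so the count is not a result about the members. EV 2 was the EV array farthest from the others for 50.9% of all tested probes. Here EV 2 was the array apart for 7 of the 9 probes. It was high for ENO2 (0.29, gap 0.936 of the range), BNIP3 (4.51, 0.918), the dimmer VEGFA probe (-1.54, 0.905) and P4HA1 (1.45, 0.848). It was low for the dimmer PGAM1 probe (-0.06, 0.915), EGLN2 (-0.36, 0.883) and PFKL (-2.83, 0.856). EV 4 was high for P4HA2 (3.13, 0.947) and EV 3 for ANKRD37 (-1.25, 0.846). The HOTAIR group of 3 was not examined in this way.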

How the results depend on the processing

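No member passed the adjusted threshold in 20 of the 21 alternative settings, the exception being CA12 with limma array weights (1 member, difference 0.90, adjusted p = 0.0345). With 4 against 3 arrays the Mann-Whitney U test, among those 20, could not pass in any case. The count by brightest probe, also among those 20, takes part of the probes of the main fit and could not differ from it. Over the 19 named members, 349 of 380 values kept their direction and side of the threshold. This count includes values that could not turn. Where only the filter on dim probes, the kind of moderation or the test was changed, the differences were those of the main fit. There only the side of the threshold could change, and with the Mann-Whitney U test not even that. The median difference of the members, 0.02, was -0.02 after quantile normalization and 0.06 in the unscaled table, where the median of all probes moved to -0.02 and 0.06. The count of all tested probes past the threshold, 34, was 12 with normexp background, 14 without a filter, 22 with probes well above background on all arrays, 20 with trend and robust moderation, 324 with array weights, 81 by rank product, 14 without EV 2 and HOTAIR 3, and 0 by the Mann-Whitney U test (0 at an unadjusted p under 0.05). Leaving out 1 array gave 9 to 31, and each array but EV 2 moved the count by over 1.5 times. The samples share only replicate numbers (correlations of same-numbered deviations 0.39, -0.37 and -0.41), and not every sample correlated best with its own number; the replicate block gave 0 probes (1073 at an unadjusted p under 0.05). Some signs turned. ARNT was -0.01 with normexp, -0.04 with quantile and -0.02 with array weights. PGK1 was 0.03 with normexp, 0.02 with the percentile over detected probes, 0.04 unscaled, 0.01 with the replicate block and 0.02 with array weights. PFKL was -0.0029 with normexp, -0.02 without EV 2 and HOTAIR 3 and -0.06 with array weights. LDHA was -0.04 with quantile, EPAS1 was -0.04 without both arrays and -0.03 with array weights, and HIF1A was 0.0036 with array weights. Leaving out 1 array moved EPAS1 from -0.02 to 0.14, ARNT from -0.05 to 0.10, EGLN2 from -0.05 to 0.29, VEGFA from -0.02 to 0.28, PGK1 from -0.04 to 0.03, LDHA from -0.06 to 0.11, PFKL from -0.40 to 0.57 and ENO1 from -0.09 to 0.47. The cause was not tested.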
